A study of Sus scrofa with 189 samples.

Results

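Muscles rich in fibrillar collagen RNA were set against muscles poor in it, among pigs of a Duroc by Luchuan first-generation cross. The muscle was the longissimus dorsi of the loin, whose polyadenylated RNA was sequenced in 189 animals. The groups were chosen by measured collagen RNA: for each animal a collagen score was computed as the mean of log2(FPKM + 1) of COL1A1, COL1A2 and COL3A1 (FPKM are read fragments scaled to transcript length and to the size of the library). Of the 189 libraries, 21 carry the mark re-analyzed in their titles and 1 other, library 39, was left out by the rule, which left 167. The 41 libraries with the highest scores are called collagen-rich, the 41 with the lowest collagen-poor, and the 85 between them middle. Libraries are named by the sample number in their labels.

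All groups share the cross, the farm, the diet, the abattoir, the age at slaughter (210 ± 6 days) and the sampling at the thoracolumbar junction 25 min after death. The cross came from 8 Duroc boars, with 158 Luchuan sows given for the sequenced series and 112 sows for a population of 265 animals. No animal was treated, and nothing but the collagen RNA of the same libraries was used to form the groups. The labels explain neither the mark re-analyzed nor the code in the titles, and they give no sex, litter or sequencing batch. Each library is 1 animal of 1 muscle, so p-values measure the spread between animals.

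Collagen I is a triple helix of COL1A1 and COL1A2 chains, and collagen III is built of COL3A1 chains. Both assemble into the fibrils of the connective tissue that sheathes muscle fibres, fibre bundles and whole muscles. In muscle they are made mainly by fibroblasts and by fibro-adipogenic progenitors, stromal cells that can also give rise to fat cells. Procollagen is folded in the endoplasmic reticulum with the help of hydroxylases and chaperones, is trimmed outside the cell, and is then cross-linked. In meat the amount and cross-linking of this tissue are known for their bearing on toughness.

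The 3 genes that formed the groups are given as a description, without a test. COL1A1 (chromosome 12, 26379000 to 26397284, minus strand, Sscrofa11.1) lay at 26.6 to 119 FPKM with a median of 77.0 in the collagen-poor and at 120 to 357 with a median of 180 in the collagen-rich muscles. COL1A2 (chromosome 9, 74174220 to 74210398, plus strand) had medians of 63.8 and 174 FPKM, with ranges of 22.1 to 85.1 and 137 to 274. COL3A1 (chromosome 15, 93556914 to 93596360, plus strand) had medians of 181 and 552 FPKM, with ranges of 36.3 to 264 and 401 to 726. None of the 3 genes overlapped between the groups, which the choice of the groups favours. The middle libraries had medians of 116, 109 and 339 FPKM in the same order of genes. The re-analyzed libraries had medians of 94.8, 85.5 and 208 FPKM and spanned most of the whole range, from 29.6 to 283 for COL1A1. The ratio of COL3A1 to COL1A1 had a median of 2.22 in the collagen-poor, 3.00 in the middle, 3.02 in the collagen-rich and 2.20 in the re-analyzed libraries. That of COL1A1 to COL1A2, the 2 chains of collagen I, had medians of 1.14, 1.06, 1.04 and 1.12. Over the 167 libraries the log2 levels of COL1A2 and COL3A1 had a Pearson r of 0.95, COL1A1 and COL1A2 one of 0.86, and COL1A1 and COL3A1 one of 0.79.

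The scores formed a continuum with no gap at either limit. The collagen-poor group ended at library 62 with a score of 6.87296, and the next library, 65, had 6.87608. The collagen-rich group began at library 26 with 7.72959, and the last library outside it, 176, had 7.71831. The scores ran from 4.90 to 6.87 (median 6.67) in the collagen-poor group and from 7.73 to 8.65 (median 7.99) in the collagen-rich group. Libraries 3 and 76, with scores of 4.90 and 5.21, stood below the next lowest at 6.10. Library 39, outside both groups, had 9.11, with 434 FPKM of COL1A1 and 604.7 FPKM of the fat cell gene ADIPOQ.

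**Figure D1:**
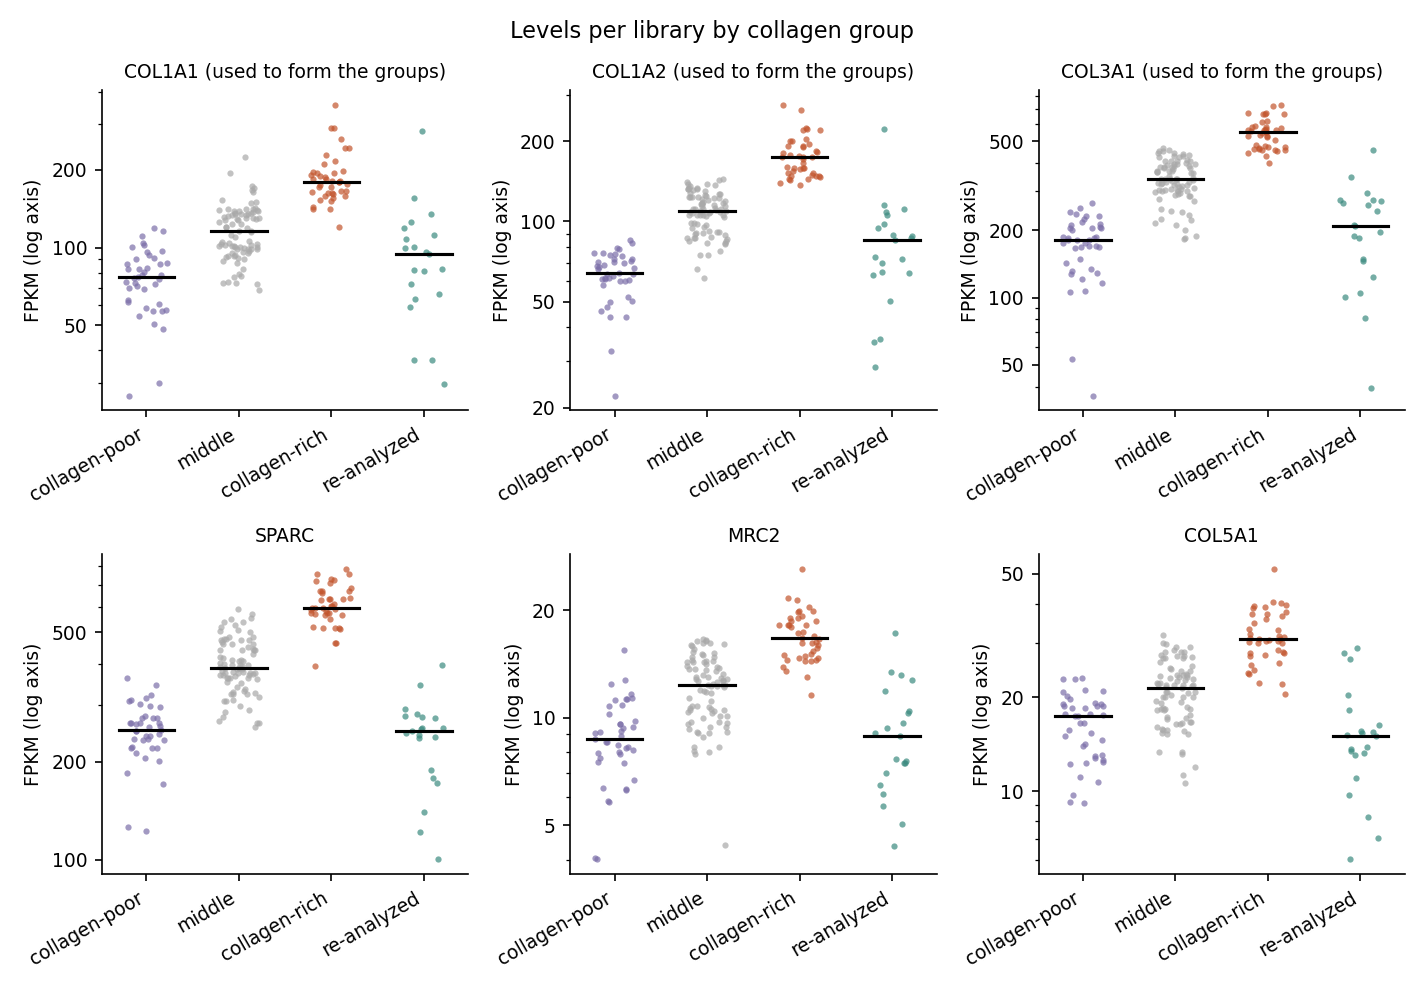
FPKM per library on log axes for the 3 genes that formed the groups and for SPARC, MRC2 and COL5A1, with 41 collagen-poor, 85 middle, 41 collagen-rich and 21 re-analyzed libraries. Points are animals and bars are group medians; SPARC does not overlap between the collagen-poor (up to 361 FPKM) and collagen-rich groups (from 394 FPKM).

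Which other genes vary with these collagens was tested over 10714 genes. Genes of the matrix around the collagen fibril were higher in the collagen-rich muscles as a body: of 104 tested members of 8 matrix gene lists, 80 were higher and 3 lower. Genes of fatty acid synthesis, fat cells, macrophages and fibroblasts were also higher, whereas genes encoded in mitochondrial DNA and several genes of ribosomal proteins were lower. Over all genes 1923 were higher (17.9% of those tested) and 2525 lower (23.6%), 41.5% in either direction, at a limma adjusted p under 0.05. Shifting each library to the same median level with the groups kept gave 2209 higher and 2420 lower, so that higher genes were 47.7% of the calls in place of 43.2%. Forming the groups again after the shift gave 3421 higher and 2751 lower (55.4%). In that setting the score carries the same shift as the genes by construction. Most differences were small: 31 genes were higher and 17 lower by at least 1 log2 unit, and the median over all genes was -0.04. Because the groups were formed from collagen levels of the same libraries, these calls describe genes that vary together with collagen RNA. In bulk tissue, fewer cells of a type and less RNA per cell cannot be told apart.

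Library composition moved with the groups as well. The share of FPKM in genes of mitochondrial DNA was 5.92 ± 1.67% (SD, n = 41) in the collagen-rich and 7.40 ± 1.91% in the collagen-poor libraries (2-sided permutation test, adjusted p = 0.00055 over 5 measures). The share of the 10 most abundant genes was 36.1 ± 4.37% against 31.8 ± 4.24% (permutation adjusted p = 9.9999e-05, from the smallest p that the permutations can give). The summed FPKM, the number of genes at 1 FPKM or more and the median log2 level gave permutation adjusted p-values of 0.821, 0.821 and 0.6003. Of the 1923 higher genes, 73.3% were still called with the mitochondrial share as a covariate and 79.8% with the top-10 share. Of the 2525 lower genes, 19.6% and 11.3% were. Of the genes named here by a fixed rule, 97 and 94 of the 103 higher ones and 10 and 3 of the 36 lower ones kept their call, and the part of composition in the others was not tested further. Without libraries 3 and 76, 1994 genes were higher and 2282 lower, and 1881 of the 1923 and 2248 of the 2525 remained.

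SPARC, a collagen-binding protein of the matrix, separated the groups most cleanly. Its level was 123 to 361 FPKM with a median of 251 in the collagen-poor muscles and 394 to 786 with a median of 596 in the collagen-rich muscles. The groups did not overlap, and this was the only such gene of the 10714 (0.00933%). The difference was 1.29 log2 units (SE 0.0604, limma adjusted p = 1.12e-31) on the log2(FPKM + 1) scale, where changes of weakly expressed genes come out too small. SPARC lies on chromosome 16 from 71368164 to 71380972.

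The other fibril collagens followed the same order. Of 10 tested fibrillar and fibril-associated collagens 8 were higher and 0 lower, with a median difference of 0.48. The 3 chains of collagen V, which co-assembles with collagen I, were all among them. COL5A1 (chromosome 1, 273956343 to 274082908) had 9.13 to 23.0 FPKM with a median of 17.5 in the collagen-poor and 20.5 to 51.9 with a median of 30.7 in the collagen-rich muscles (0.92 log2 units, SE 0.0689, limma adjusted p = 1.76e-19). The groups touched only at their edges. COL5A2 was higher by 1.15 (medians 10.5 and 24.9 FPKM) and COL5A3 by 0.97 (13.4 and 28.0 FPKM). COL21A1, a fibril-associated collagen, was higher by 0.59, and COL12A1, which decorates fibril surfaces, by 0.58. The 2 that did not pass were COL14A1, also fibril-associated, with medians of 18.5 and 18.4 FPKM (difference 0.02, adjusted p = 0.903), and COL27A1 (0.03, adjusted p = 0.73).

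Type VI collagen forms beaded filaments around the fibre. COL6A1 had 42.3 to 88.3 FPKM with a median of 58.1 in the collagen-poor and 80.7 to 127 with a median of 97.4 in the collagen-rich muscles (0.78, SE 0.0495, limma adjusted p = 3.2e-23). COL6A2 was higher by 0.84 (medians 31.9 and 65.0 FPKM) and COL6A6, a low gene, also by 0.84 (1.19 and 2.92 FPKM). The fourth tested chain, COL6A3, had medians of 14.7 and 7.28 FPKM and overlapping ranges of 1.68 to 41.6 and 1.23 to 58.6 (difference -0.35, adjusted p = 0.276). Of 13 tested genes of the basement membrane, the thin sheet that wraps each fibre and vessel, 10 were higher and 0 lower, with a median of 0.48. COL15A1, a basement membrane collagen, was higher by 0.81 (medians 28.4 and 48.8 FPKM) and COL4A2, a chain of the sheet's collagen network, by 0.71 (30.7 and 52.8 FPKM). NID1, which links that network to laminin, and the laminin chain LAMA4 were each higher by 0.73.

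Procollagen is folded and modified before it leaves the cell. Of 21 tested folding and modification genes 13 were higher and 2 lower (median 0.30). FKBP10, a chaperone of procollagen, had 1.46 to 3.36 FPKM in the collagen-poor and 2.41 to 5.27 in the collagen-rich muscles, with medians of 1.87 and 3.64 (0.65, SE 0.042, limma adjusted p = 4.75e-23). The groups overlapped between 2.41 and 3.36 FPKM. SERPINH1, the collagen-specific chaperone also called HSP47, was higher by 0.63 (medians 47.3 and 72.2 FPKM), PPIB by 0.50 and CRTAP by 0.47. The 2 lower genes were P4HB, the shared subunit of prolyl 4-hydroxylase and a general disulfide isomerase (-0.26, medians 112 and 90.1 FPKM, adjusted p = 0.00147), and TMEM38B, a potassium channel of the endoplasmic reticulum (-0.34, adjusted p = 0.0253). P4HA1, a catalytic subunit of the same hydroxylase, had medians of 6.24 and 6.51 FPKM (0.03, adjusted p = 0.839), and P3H1, the prolyl 3-hydroxylase, 3.74 and 4.10 FPKM (0.01, adjusted p = 0.934).

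Of 9 tested genes of cleavage and cross-linking 8 were higher and 0 lower (median 0.39). ADAMTS2, which removes the amino-terminal propeptide of fibrillar procollagen, had 0.725 to 3.06 FPKM with a median of 1.56 in the collagen-poor and 2.18 to 6.52 with a median of 4.38 in the collagen-rich muscles (1.06, SE 0.0625, limma adjusted p = 3.82e-25). All 41 collagen-rich libraries exceeded the collagen-poor median. LOXL2, a lysyl oxidase that cross-links collagen, was higher by 0.97 (medians 3.10 and 7.70 FPKM). PCOLCE and PCOLCE2, which enhance removal of the carboxy-terminal propeptide, were higher by 0.87 and 0.65. LOX, another cross-linking enzyme, was higher by 0.34 (adjusted p = 0.0235).

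Of 24 tested matrix glycoproteins and elastic fibre genes, SPARC among them, 22 were higher and 0 lower, with a median of 0.63. CCDC80, a secreted matrix protein outside the lists, had 3.89 to 21.0 FPKM with a median of 11.09 in the collagen-poor and 14.3 to 47.5 with a median of 29.2 in the collagen-rich muscles (1.40, SE 0.0906, limma adjusted p = 4.75e-23). Of the list, FN1, fibronectin, was higher by 1.20 (medians 17.1 and 38.3 FPKM), MGP, an inhibitor of calcification, by 1.34, MFAP5, a microfibril protein, by 1.04, FBN1, the main protein of microfibrils, by 0.98, and ELN, elastin, by 0.95. Of 9 tested small leucine-rich proteoglycans, which coat and space the fibrils, 6 were higher and 0 lower (median 0.70). DCN, decorin, had medians of 98.6 and 199 FPKM with ranges of 58.5 to 189 and 98.3 to 301 (0.86, SE 0.0878, limma adjusted p = 2.77e-13). BGN was higher by 1.08, FMOD by 1.05 and LUM by 0.88. ASPN and OGN of the same family did not pass, at 0.19 (adjusted p = 0.163) and 0.21 (adjusted p = 0.357).

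Genes that take collagen apart were higher beside those that build it. Of 14 tested genes of matrix breakdown and its inhibitors 10 were higher and 1 lower (median 0.34). MRC2, an endocytic receptor that takes up collagen fragments (chromosome 12, 16059766 to 16119702), had 4.00 to 15.5 FPKM with a median of 8.72 in the collagen-poor and 11.6 to 26.2 with a median of 16.8 in the collagen-rich muscles (0.89, SE 0.0656, limma adjusted p = 8.82e-20). MMP2, gelatinase A, was higher by 0.63 (medians 26.3 and 40.1 FPKM), MMP19 by 0.70, and MMP14, the membrane protease that activates MMP2, by 0.66. The protease inhibitors TIMP4, TIMP1 and TIMP2 were higher by 0.63, 0.60 and 0.29. MMP11 was the lower member (-0.37, adjusted p = 0.0112).

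Of 18 tested genes of the TGF-beta pathway, a main inducer of collagen genes in fibroblasts, 6 were higher and 2 lower (median -0.02). Over all genes 17.9% were higher and 23.6% lower. TGFB1, a ligand, had 1.51 to 4.04 FPKM in the collagen-poor and 2.06 to 5.21 in the collagen-rich muscles, with medians of 2.53 and 3.62 (0.35, SE 0.0547, limma adjusted p = 1.86e-07). The groups overlapped over most of their ranges. TGFB3, another ligand, was higher by 0.42, the receptor TGFBR2 by 0.46 and the induced matrix protein TGFBI by 0.68. The signal transducer SMAD4 and the inhibitor SMAD6 were lower by -0.30 (adjusted p = 0.0405) and -0.21 (adjusted p = 0.0383), and neither stayed called with the mitochondrial share or with the top-10 share as a covariate, where no member of the list was lower. Of 10 tested collagen-binding receptors and integrins 3 were higher and 0 lower (median 0.03): ITGA5, ITGB5 and the collagen receptor chain ITGA11 by 0.43, 0.35 and 0.25. ITGA11 averaged 0.696 FPKM in the collagen-rich, 0.431 in the collagen-poor and 0.481 in the middle libraries. It passed the filter at a mean of 0.5 FPKM only through libraries where it is high, so its call is no support. The collagen receptor DDR2 had medians of 1.12 and 1.46 FPKM (0.22, adjusted p = 0.106).

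**Figure D2:**
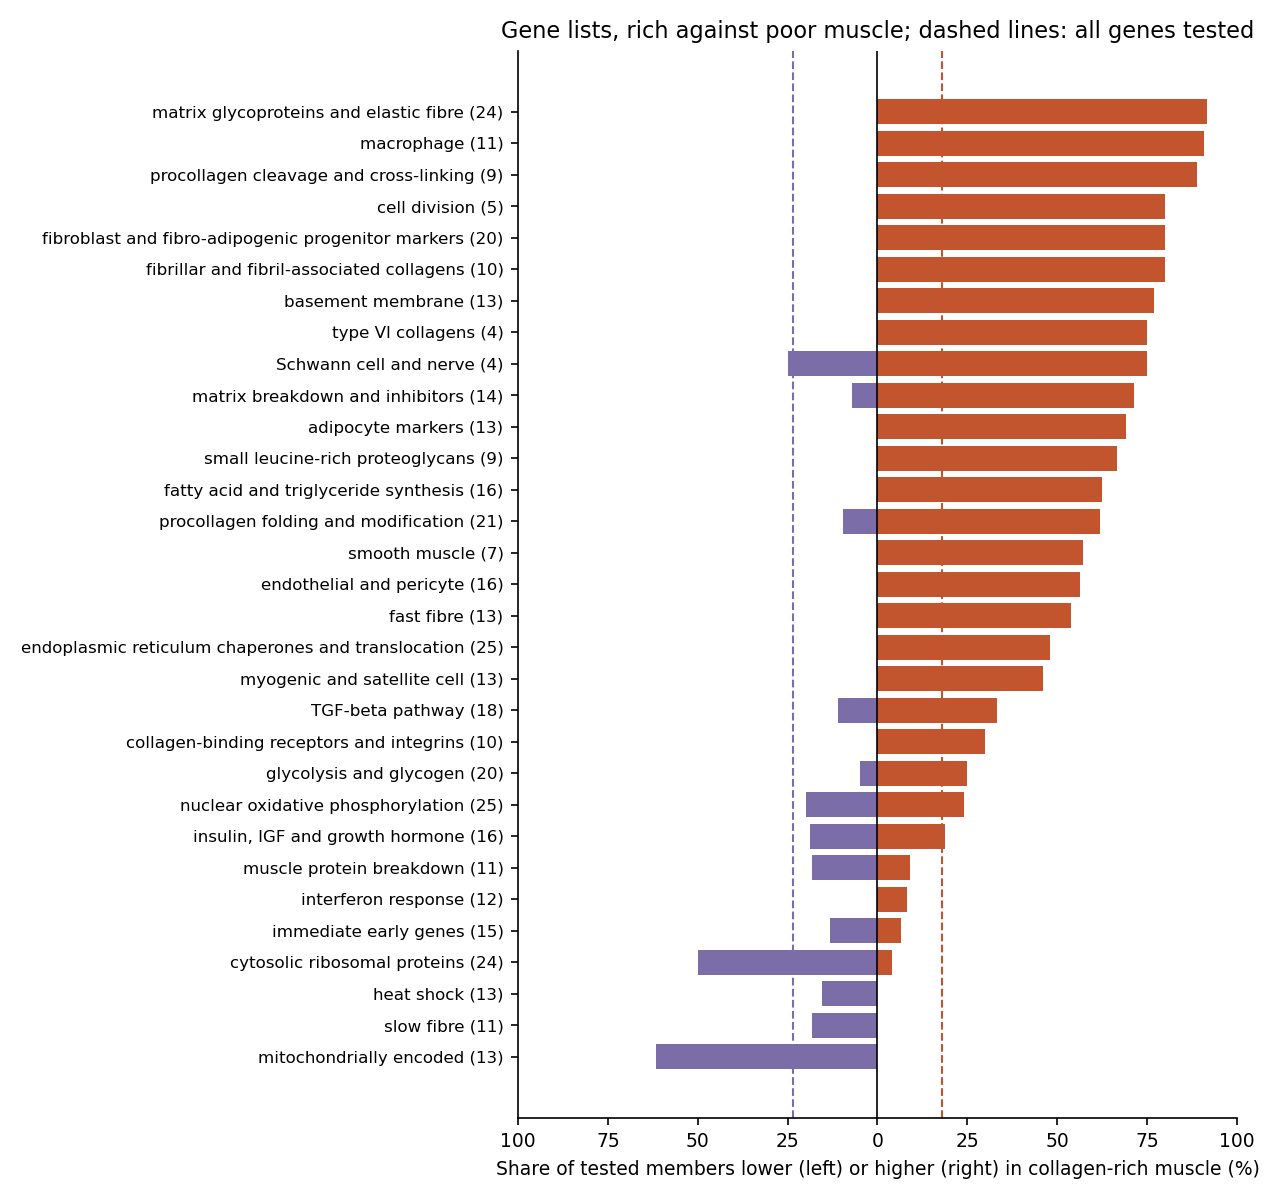
Share of the tested members of each gene list that were higher (right) or lower (left) in collagen-rich than in collagen-poor muscles, in percent, for lists with at least 4 tested members; dashed lines mark the shares over all genes, 17.9% and 23.6%. The matrix, fibroblast, macrophage and fat lists lie on the higher side, and the mitochondrially encoded and ribosomal lists on the lower side.

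Markers of fibroblasts and fibro-adipogenic progenitors were higher in 16 of 20 tested and lower in 0 (median 0.51), and their summed level was 219 to 481 FPKM (median 351) in the collagen-poor and 353 to 858 (median 548) in the collagen-rich muscles. THY1, a surface protein of stromal cells, had 2.92 to 35.2 FPKM with a median of 20.2 against 30.4 to 81.5 with a median of 51.4 (1.51, SE 0.132, limma adjusted p = 3.72e-16). All 41 collagen-rich libraries exceeded the collagen-poor median of THY1. FSTL1, SFRP2 and PI16, secreted proteins of stromal cells, were higher by 1.11, 1.10 and 1.06, and PDGFRA, the defining receptor of these progenitors, by 0.54 (medians 3.41 and 4.81 FPKM). Of the list GLI1 was at 0 in 7 collagen-poor and 3 collagen-rich libraries and TWIST2 in 2 and 0, and no other member was at 0. Of 2 tested tendon genes CILP was higher by 0.56 and CHAD by 0.11. CHAD averaged 0.369 FPKM in the collagen-poor and 0.484 in the collagen-rich muscles. It passed the filter at a mean of 0.5 FPKM only through library 39, which had 22.8 FPKM. SCX, TNMD, MKX, COMP and THBS4, the genes that mark tendon best, were not in the table used here.

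The 2 largest differences of all genes were in lipid synthesis. SCD, the stearoyl-CoA desaturase that makes monounsaturated fatty acids (chromosome 14, 111461157 to 111478031), had 0.242 to 17.2 FPKM with a median of 1.69 in the collagen-poor and 1.37 to 96.7 with a median of 12.6 in the collagen-rich muscles. The groups overlapped, but 40 of 41 collagen-rich libraries lay above the collagen-poor median. The difference was 2.31 log2 units (SE 0.238, limma adjusted p = 4.42e-13). FASN, fatty acid synthase (chromosome 12, 922418 to 937560), had medians of 11.4 and 50.4 FPKM with ranges of 3.96 to 90.8 and 11.2 to 172 (1.72, SE 0.245, adjusted p = 2.36e-08). DGAT2, which completes triglycerides, was higher by 1.58 (medians 6.71 and 21.1 FPKM), and THRSP, a nuclear regulator of lipogenesis, by 1.41 (1.74 and 6.07 FPKM). ELOVL6, a fatty acid elongase, was higher by 0.94 and ACACA, the acetyl-CoA carboxylase, by 0.53. In all, 10 of 16 tested genes of fatty acid and triglyceride synthesis were higher and 0 lower (median 0.38). SREBF1, the transcription factor of lipogenic genes, had medians of 11.3 and 10.1 FPKM (-0.19, adjusted p = 0.177), and DGAT1, the other enzyme of the last step, 1.88 and 1.90 FPKM (-0.03, adjusted p = 0.603).

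Fat cell markers were higher in 9 of 13 tested and lower in 0 (median 0.50), with a summed level of 307 to 765 FPKM (median 460) in the collagen-poor and 401 to 837 (median 555) in the collagen-rich muscles. ADIPOQ, the hormone adiponectin, had 3.61 to 44.1 FPKM with a median of 13.7 against 11.9 to 71.9 with a median of 29.9 (1.00, SE 0.159, limma adjusted p = 3.75e-07). The ranges overlapped widely. CIDEC and CIDEA, proteins of the lipid droplet, were higher by 1.15 and 0.96, PLIN1, which coats the droplet, by 0.87, and FABP4, a fatty acid carrier, by 0.60.

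Intramuscular fat (IMF), given in the labels without a unit, was recorded in 34 collagen-rich and 37 collagen-poor animals. It ran from 1.19 to 4.74 with a median of 3.29 in the collagen-rich and from 1.82 to 5.61 with a median of 3.29 in the collagen-poor animals. The means were 3.27 ± 0.776 (SD, n = 34) and 3.33 ± 0.903 (n = 37), a difference of -0.053 with a 95% interval of -0.451 to 0.345 (2-sided permutation p = 0.792). The interval allows a difference in either direction of less than 0.5. With IMF as a covariate SCD was higher by 2.39 log2 units and ADIPOQ by 1.01 (limma adjusted p = 2.04e-11 and 1.21e-06) in the animals with a record. Since IMF hardly differed between the groups, this covariate could change these differences little. Over 142 animals of the 167 SCD had an r of 0.13 with IMF and ADIPOQ of 0.31.

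**Figure D3:**
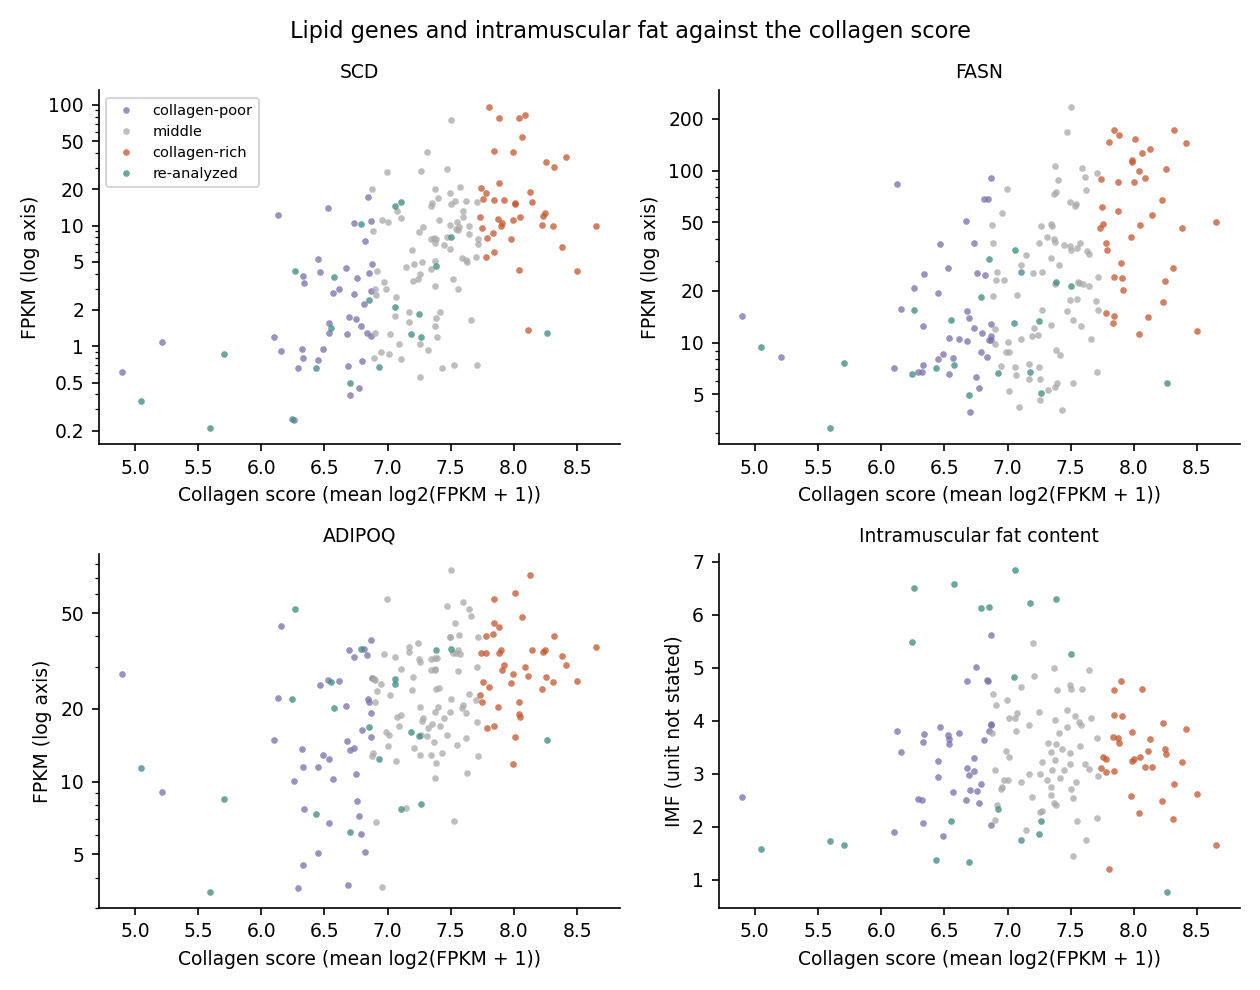
Levels of SCD, FASN and ADIPOQ (FPKM, log axis) and recorded IMF (no unit given) against the collagen score, 1 point per library, coloured by group; library 39 is not drawn. The 3 genes lie higher in the collagen-rich than in the collagen-poor muscles, whereas IMF has a median of 3.29 in both.

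Genes of other cells of the muscle were examined next. Of 11 tested macrophage genes 10 were higher and 0 lower (median 0.62), and their summed level was 17.5 to 81.0 FPKM (median 36.1) in the collagen-poor and 34.3 to 128 (median 67.3) in the collagen-rich muscles. C1QC, a complement subunit that tissue macrophages make, had 1.76 to 17.0 FPKM with a median of 5.47 against 5.09 to 25.7 with a median of 10.5 (0.97, SE 0.119, limma adjusted p = 2.66e-10). The ranges overlapped, with 40 of 41 collagen-rich libraries above the collagen-poor median. C1QB and C1QA were higher by 0.96 and 0.93 and CSF1R, the receptor for macrophage growth factor, by 0.66. C4BPA, an inhibitor of complement C4 outside the lists, was among the 10 genes with the largest difference (1.21, medians 22.1 and 58.0 FPKM).

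Endothelial and pericyte genes were higher in 9 of 16 tested and lower in 0, with a smaller median of 0.23. Their summed level was 79.6 to 217 FPKM (median 138) in the collagen-poor and 109 to 232 (median 160) in the collagen-rich muscles. CDH5, the endothelial cadherin, was higher by 0.51 and PECAM1 by 0.50. Of 7 tested smooth muscle genes 4 were higher and 0 lower (median 0.40; medians of the sum 217 and 281 FPKM), CNN1, ACTA2, TAGLN and SMTN by 0.77, 0.72, 0.52 and 0.23. Schwann cell genes gave 3 higher and 1 lower of 4: the myelin gene PMP22 was higher by 0.94, the receptor NGFR by 0.42, and MBP was lower by -0.26 (adjusted p = 0.0481). HBB, beta globin, had medians of 43.8 and 93.6 FPKM (1.05, SE 0.213, limma adjusted p = 6.22e-05). ALAS2, of haem synthesis in red cells, was higher by 0.42, while EPB42, of the red cell membrane, was lower by -0.21. Of 2 tested lymphocyte genes the chemokine CCL5 was higher by 0.64 and the B cell gene CD79A lower by -0.29, which became 0.01 with the top-10 share as a covariate. The part of blood, vessels and other cells in the matrix differences was not tested.

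Genes of proliferation were low in both groups. Of 14 present in the deposited values only 5 passed the filter, and 6 of the 14 were at 0 in some library of the groups. Of the 5 tested, 4 were higher in the collagen-rich muscles, beside 17.9% of all genes. UBE2C had medians of 0.459 and 1.82 FPKM (0.91, SE 0.0909, limma adjusted p = 1.4e-13). PCNA, also among the 4, turned to -0.00638 with groups by COL1A1 alone. Of 25 tested chaperones and translocation genes of the endoplasmic reticulum, the route of all secreted proteins, 12 were higher and 0 lower (median 0.18). Over all genes 17.9% were higher and 23.6% lower. The summed level of the list hardly differed, with medians of 2110 FPKM in the collagen-poor and 2106 in the collagen-rich muscles. With the mitochondrial share as a covariate 8 were higher and 2 lower, and with the top-10 share 13 and 2. CREB3L1, a transcription factor of that compartment known to drive collagen I genes, had medians of 1.61 and 3.63 FPKM (0.72, SE 0.0806, limma adjusted p = 1.1e-11), and KDELR3, a retrieval receptor, was higher by 0.69. Of 13 tested myogenic and satellite cell genes 6 were higher and 0 lower (median 0.14). MYMK, which lets myoblasts fuse, was the most different of them (0.71, medians 2.91 and 5.74 FPKM), ahead of the adhesion molecules NCAM1 and VCAM1 (0.49 and 0.33) and of MYOG (0.31). Of 16 tested genes of insulin, IGF and growth hormone 3 were higher and 3 lower, shares near those over all genes: IGFBP6 and IGFBP4, which bind IGF, were higher by 0.74 and 0.51, and GHR, the growth hormone receptor, and PIK3R1 were lower by -0.60 and -0.49. No member of that list was lower with either covariate, where 4 (mitochondrial share) and 6 (top-10 share) were higher.

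The fibres themselves showed the fast profile of this muscle in both groups, with a summed level of fast fibre genes of 33925 to 78848 FPKM (median 58521) in the collagen-poor and 49210 to 82319 (median 66988) in the collagen-rich muscles, against medians of 4628 and 4998 FPKM for slow fibre genes. Of 13 tested fast fibre genes 7 were higher and 0 lower (median 0.22) and of 11 slow fibre genes 0 were higher and 2 lower (median -0.09). The shares over all genes were 17.9% higher and 23.6% lower. PVALB, the calcium buffer parvalbumin, had medians of 9.63 and 22.6 FPKM (1.10, SE 0.261, limma adjusted p = 0.00052), MYLPF, the fast regulatory light chain, was higher by 0.47, and TNNI2, fast troponin I, by 0.38. MYH7B, a myosin gene with a slow pattern, was lower by -0.83 and MYOZ2, of the slow Z-disc, by -0.43, whereas MYH7, the slow myosin itself, had medians of 880 and 760 FPKM (-0.15, adjusted p = 0.393). In the re-analyzed libraries the slow list had a median slope of -0.45 on the score, with 0 genes called (limma; 8 of 11 at an unadjusted p under 0.05). With the share of the 10 most abundant genes as a covariate, the fast list gave 2 higher and 2 lower. Of 20 glycolysis and glycogen genes 5 were higher and 1 lower, among them TPI1, PKM and PGK1 (0.48, 0.39 and 0.39), and that covariate turned the list to 2 higher and 5 lower. Such abundant muscle genes are part of that share.

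Of the 13 genes of mitochondrial DNA, 8 were lower and 0 higher in the collagen-rich muscles (median -0.43). ATP6, a subunit of the ATP synthase, had 354 to 10714 FPKM with a median of 2034 in the collagen-poor and 235 to 7804 with a median of 899 in the collagen-rich muscles (-1.19, SE 0.258, limma adjusted p = 0.000159). The ranges overlapped almost entirely, and 35 of 41 collagen-rich libraries lay below the collagen-poor median. ATP8, ND6 and ND2 were lower by -0.94, -0.86 and -0.69. Of 25 tested nuclear genes of oxidative phosphorylation 6 were higher and 5 lower (median 0.01), near the shares over all genes of 17.9% and 23.6%. Among them CYCS was lower by -0.40 and COX8A higher by 0.31. Of 24 tested cytosolic ribosomal protein genes 12 were lower and 1 higher (median -0.17): RPS2, RPL13, RPL30 and RPL7 were lower by -0.48, -0.43, -0.40 and -0.40, and RPL3 was higher by 0.33. The mitochondrial calls were lost with the top-10 share as a covariate (0 lower, median -0.01) and with titles beginning in 16 only (0 lower, median -0.20). Genes of mitochondrial DNA were not kept out of the top-10 share, so that covariate may not be independent of them. With the mitochondrial share 0 were lower and 1 higher, but these genes make up that share, so this loss was fixed in advance. The nuclear list gave 3 higher and 0 lower with the top-10 share. The ribosomal list gave 6 lower with that share and 1 with titles of 16 only, but 14 lower with the mitochondrial share (median -0.19). In the re-analyzed libraries the slope of the mitochondrial list on the score had a median of 0.01.

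The genes with the most negative differences were of mixed function and varied together. They were TMEM238, a small membrane protein, 3 short entries of the nuclear non-coding RNA NEAT1, MRPL57 of the mitochondrial ribosome, the cytokine CTF1, ATP6, the sarcomere protein NEXN, ANKRD9 and TEX9. TMEM238 had 0.399 to 84.0 FPKM with a median of 19.9 in the collagen-poor and 0.451 to 43.6 with a median of 2.43 in the collagen-rich muscles (-1.57, SE 0.377, limma adjusted p = 0.00061). Both groups covered nearly the same range, with 33 of 41 collagen-rich libraries below the collagen-poor median. TMEM238 had 0.423 to 93.2 FPKM with a median of 5.52 in the middle and 4.90 to 127 with a median of 49.1 in the re-analyzed libraries. NEAT1_2 had medians of 428 and 99.95 FPKM (-1.33), and the 3 NEAT1 entries of 122, 124 and 158 bases lie beside each other on chromosome 2 between 6810386 and 6811200, so they are 1 locus. TMEM238, MRPL57, CTF1, ATP6 and ANKRD9 are short as well, with longest listed transcripts of 537, 636, 609, 681 and 903 bases. TEX9 and NEXN had 1420 and 3284 bases. The median was 3618.5 bases over all genes tested and 3536 over the 2525 lower genes. The part of transcript length was not tested. Over the 167 libraries the 45 pairs of these 10 genes had Pearson r between 0.55 (NEXN and CTF1) and 0.99 (NEAT1_3 and NEAT1_2), with a median of 0.74, as a description of libraries that share composition.

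Fewer genes were lower once composition entered the fit. With the mitochondrial share as a covariate 619 genes (5.78%) were lower and with the top-10 share 360 (3.36%). Of the 10 named, CTF1 (adjusted p = 0.0137) and TEX9 (0.0447) passed with the first covariate and CTF1 (0.0232) with the second. The titles begin with the digits 15 or 16, whose meaning the labels do not give. Digits 15 made up 11 of 41 collagen-rich (26.8%) and 18 of 41 collagen-poor libraries (43.9%; Fisher's exact test, 2-sided p = 0.165). Within digits 15 TMEM238 differed by -2.98 (medians 25.1 and 1.42 FPKM) and within digits 16 by -0.77 (14.7 and 3.16 FPKM). Within digits 15 alone 2447 genes were lower and within digits 16 alone 139, whereas SPARC was higher by 1.45 and 1.20 and SCD by 2.55 and 2.16. A test of the difference between the 2 sets of titles gave 0 called genes (limma interaction, smallest adjusted p = 0.0961), with 1149 genes at an unadjusted p under 0.05.

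**Figure D4:**
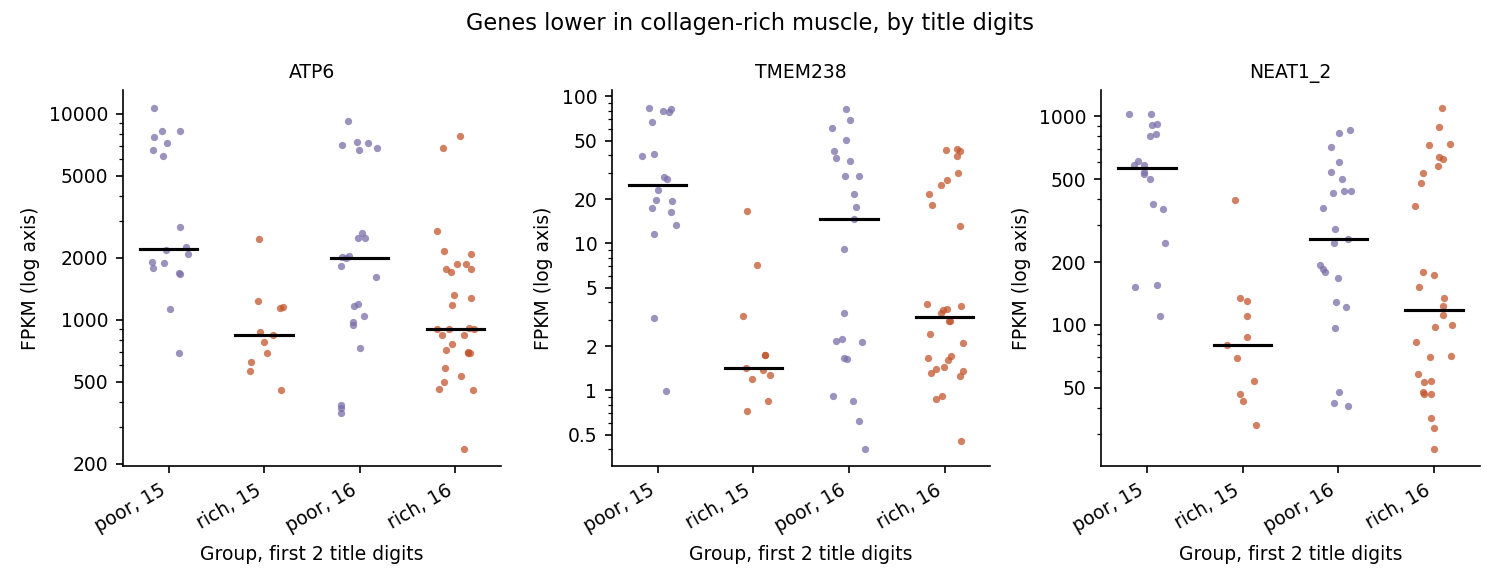
FPKM per library on log axes for ATP6, TMEM238 and NEAT1_2 in collagen-poor and collagen-rich muscles, split by the first 2 digits of the title, with medians as bars. Medians are lower in the collagen-rich libraries within both sets of titles, while the ranges overlap (TMEM238 from 0.399 to 84.0 FPKM in the collagen-poor group).

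The first 9 digits of the titles are shared by some animals, and the collagen score was compared between such codes. Among 127 animals of 44 shared codes the intraclass correlation of the score was 0.0319 (permutation p = 0.357). Of the codes, 11 held both a collagen-rich and a collagen-poor animal.

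Since the groups were formed by collagen itself, the same genes were followed in libraries that belong to neither group. In the 85 middle libraries, whose scores ran from 6.88 to 7.72, levels were fitted against the score: 115 genes rose (1.07%) and 12 fell (0.112%; limma adjusted p under 0.05). In the 21 re-analyzed libraries, with scores from 5.05 to 8.26, 93 genes rose (0.868%) and 2 fell (0.0187%). Matrix genes stood out in both: of the 104 tested members of the 8 matrix lists 24 rose in the middle libraries (23.1%) and 31 in the re-analyzed ones (29.8%). Of 338 tested members of the other 26 lists 10 and 7 rose. Most rising genes were in no list: 81 of the 115 and 55 of the 93, or 0.789% and 0.535% of 10272 such genes. The lists were chosen with earlier results of these data known. A slope is in log2 units of the gene per unit of the collagen score.

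Rising in both sets were 32 genes, 27.8% of the 115 and 34.4% of the 93, and all 32 were higher in the collagen-rich muscles. Of these, 21 still rose in both sets with the mitochondrial share as a covariate, 25 with the top-10 share and 20 when each library was shifted to the same median with the score kept, and all 32 kept positive slopes in both sets under each. MRC2 had slopes of 0.91 in the middle (limma adjusted p = 5.7e-11) and 0.57 in the re-analyzed libraries (4.82e-05). SPARC had slopes of 0.73 (6.84e-07) and 0.62 (2.96e-06), COL5A1 of 0.84 and 0.68, CCDC80 of 1.01 and 0.77, FN1 of 0.75 and 0.83 and THY1 of 1.18 and 0.70. The collagens COL5A2, COL6A2, COL6A6, COL4A2 and COL15A1, the processing genes ADAMTS2, PCOLCE and LOXL2, the microfibril and elastic fibre genes FBN1, ELN and LTBP1, the protease MMP2, the secreted CTHRC1, HMCN2 and FBLN7 and the stromal SFRP2 were also among them. Genes with other or less settled roles were CPXM1 and CPZ, members of the carboxypeptidase family, C1QTNF6, LAYN, a hyaluronan receptor, PTGFRN, FSCN1, an actin-bundling protein, the plexin PLXND1, PLXDC1, which has a plexin domain, and APLNR, the apelin receptor of vessels. The last is ENSSSCG00000032706, which lies within COL3A1 on the same strand (chromosome 15, 93556957 to 93557092), so its reads cannot be told apart from those of COL3A1 without strand or junction information.

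**Figure D5:**
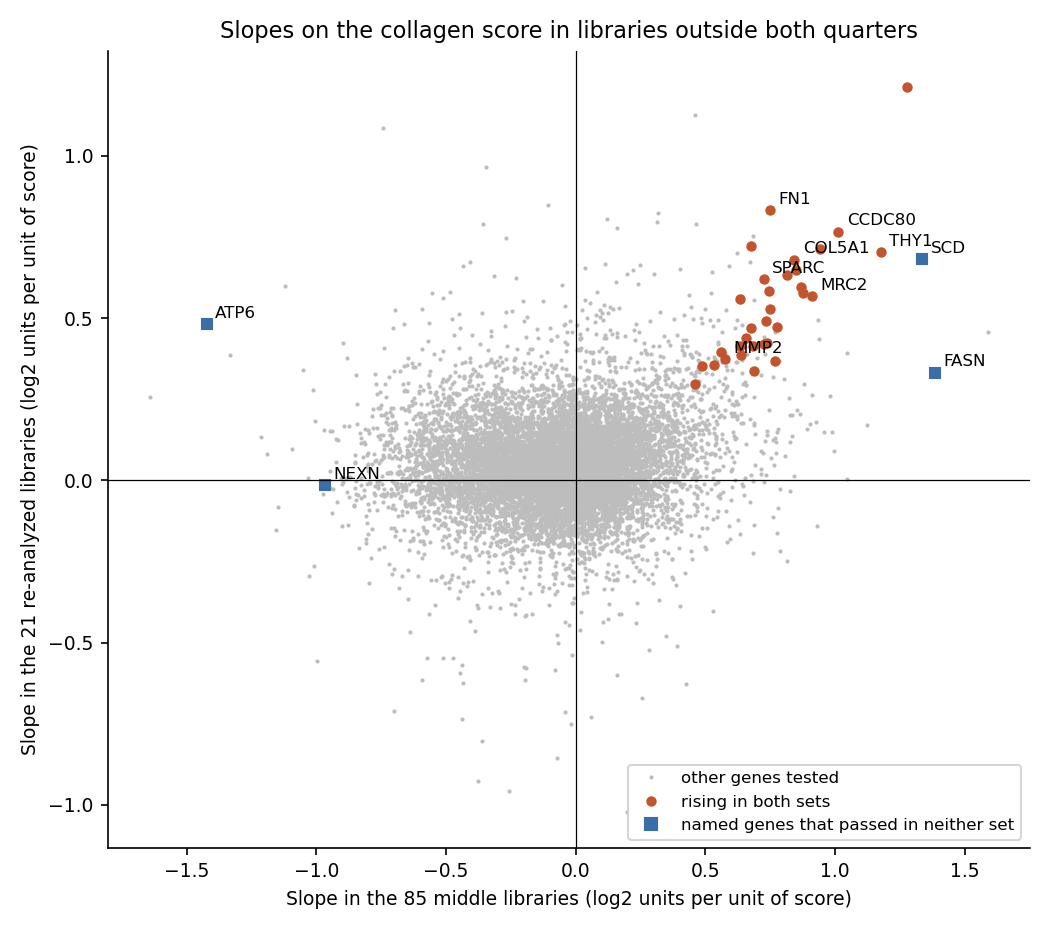
Slope of each gene on the collagen score in the 85 middle libraries (x axis) and the 21 re-analyzed libraries (y axis), in log2 units per unit of score, for 10714 genes. The 32 genes that rose in both sets are orange and have positive slopes on both axes; SCD, FASN, ATP6 and NEXN, drawn as blue squares, passed in neither set.

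The re-analyzed result leans on the libraries at the ends of the score. Without library 34, the lowest at 5.05, 36 genes rose and 14 of the 32 still did. Without library 69, the highest at 8.26, 50 rose (26 of the 32), and without both 12 rose (8 of the 32), while 32 of 32 slopes stayed positive. These 21 animals were also extremes of fat: 11 had an IMF of 0.77 to 2.33 and 10 of 4.83 to 6.84. With IMF as a covariate 86 genes rose there, 80 of them among the 93, and 28 of the 32.

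Few lipid and immune genes passed in the libraries outside the groups. SCD had slopes of 1.34 in the middle (SE 0.533, limma adjusted p = 0.162) and 0.68 in the re-analyzed libraries (SE 0.310, adjusted p = 0.404). FASN had slopes of 1.38 (SE 0.549, adjusted p = 0.16) and 0.33 (SE 0.246, adjusted p = 0.646). With standard errors of this size, a gene that did not pass is not shown to be unrelated to the score. Of the 16 synthesis genes 0 passed in either set (limma; 4 and 2 at an unadjusted p under 0.05). Of the 13 fat cell markers PLIN1 passed in the middle libraries (1.05, limma adjusted p = 0.0417; 6 of 13 at an unadjusted p under 0.05) and 0 of 13 in the re-analyzed ones (limma; also 0 at an unadjusted p under 0.05). Of the 11 macrophage genes, whose median slope in the middle libraries was 0.57, CSF1R passed there (0.62, limma adjusted p = 0.0181; 7 of 11 at an unadjusted p under 0.05) and 0 of 11 in the re-analyzed libraries (limma; 2 at an unadjusted p under 0.05). A test of whether slopes differed between the middle and the re-analyzed libraries called 0 genes (limma, smallest adjusted p = 0.233), with 1663 genes at an unadjusted p under 0.05, so no gene was shown to differ between them.

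The signs of the slopes outside the groups were compared with those of all genes. Of the 1923 higher genes 80.3% had a positive slope in the re-analyzed libraries, beside 62.3% of all genes. Of the 2525 lower genes 47.1% had a negative slope there, beside 37.7% of all genes. In the middle libraries 86.6% of the higher genes had a positive slope, beside 41.6% of all genes, and 87.1% of the lower genes a negative one, beside 58.4%. The 12 genes that fell in the middle libraries, among them MAPKAPK5, a stress kinase (-0.47, adjusted p = 0.00436), and IVNS1ABP, an actin-binding protein (-1.09, adjusted p = 0.00473), had re-analyzed slopes between -0.08 and 0.13. The 2 that fell in the re-analyzed libraries were CLEC1A and LYSMD2, named after their values were seen.

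By Pearson r with the score over the 85 middle libraries, a description of likeness, MRC2 came first (0.73), then SPARC and COL5A1 (0.63 each), CCDC80 (0.62), LTBP4 (0.59), MMP2 (0.58), COL6A1 (0.57), FGFR1 and ENSSSCG00000032706 (0.54 each) and PTGFRN (0.52). LTBP4, which holds latent TGF-beta in the matrix, had medians of 50.9 FPKM in the collagen-poor and 73.9 in the collagen-rich muscles, and FGFR1, a growth factor receptor, 6.24 and 8.89 FPKM. The most negative were MAPKAPK5 (-0.47), IVNS1ABP (-0.45), ENSSSCG00000036052 and ENSSSCG00000034567 (-0.44 each) and DYNLRB2 (-0.41).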

How the data were processed

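Polyadenylated RNA of 189 muscles was sequenced as 150-bp paired-end Illumina libraries, per the labels' protocols. HISAT2 2.0.5, StringTie 1.3.3 and the build Sscrofa11.1 are named in the submitters' processing notes. For the annotation release and the filter on transcripts the labels and headers used here give nothing. As deposited by the authors, FPKM were made from reads aligned with HISAT2 and assembled with StringTie, per the submitters' processing notes, with 1 value per transcript and sample for 18114 transcripts of 12651 genes. That they are FPKM is an inference from the tool and from sample sums of 364109 to 465105, because no unit stands in the header. No gene was at 0 in more than 9.52% of libraries. No counts are given, so depth is unknown and no counting interval was computed. Symbols came from the table for 10949 genes and from a reference table for 746, and 956 have none.

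Transcripts were summed per gene and taken as log2(FPKM + 1). Genes averaging 0.5 FPKM or more across the 189 samples, without the 3 that formed the groups, were tested with limma 3.58.1 (R 4.3.3, eBayes with trend, Benjamini-Hochberg over 10714 genes, called under 0.05). The code was tested on simulated data. IMF, library measures and title codes were compared by permutation tests with 100000 resamples (scipy 1.17.1, numpy 2.4.6, pandas 2.3.3, Python 3.11.15). The members and the 34 gene lists were chosen with earlier results of these data known. Named by rule were the 10 called genes with a symbol highest and the 10 lowest in difference, up to 4 called members of each list with the largest absolute difference (or, where none was called, the 2 of highest mean), and the 10 highest and 5 lowest in correlation with the score in the middle libraries. Others, such as list members that did not pass and genes that rose outside the groups, were named after their values were seen. Alternatives are listed with their effects in the closing section. Library 39 was left out of the groups by the rule.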

Additional observations from a re-analysis of the deposited data

How the results depend on the processing

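In place of 1923 higher genes, 779 were called at a mean of at least 5 FPKM (fewer genes tested). There were 893 when 10% of the libraries were taken at each end (fewer samples) and 959 with titles of digits 16 only. When each library was shifted to the same median, 2209 were called with the groups kept. With the groups formed again 3421 were called, where the score carries the shift by construction. Digits 15 only (11 collagen-rich and 18 collagen-poor libraries, against 30 and 23 of digits 16) gave 1417 higher and 2447 lower genes. In place of 2525 lower genes, 1407 were called at a mean of at least 5 FPKM, 607 with 10% at each end, 1435 with groups by COL1A1 alone, 139 with digits 16 only, 619 with the mitochondrial share and 360 with the top-10 share as a covariate. Higher genes were 43.2% of the calls. They were 73.9% with the mitochondrial share and 87.6% with the top-10 share. After the shift they were 47.7% with the groups kept and 55.4% with new groups. With 10% at each end they were 59.5%, with digits 16 only 87.3% and with digits 15 only 36.7%. The cause of these changes was not tested. With the top-10 share the median difference over all genes moved from -0.04 to 0.07.

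In the middle libraries, where 115 genes rose and 12 fell, the median shift gave 3621 and 2253 with the score shifted too (the score then carries the shift by construction), 309 and 88 with the score kept, the mitochondrial share 44 and 0, and the top-10 share 3 falling. In the re-analyzed libraries, where 93 rose and 2 fell, 51 rose with the shift and the score kept and 12 without the lowest and highest scoring libraries. Those falling there were 10 with the shift, 6 with the score kept, 1 with the mitochondrial share, 5 with the top-10 share, 6 with IMF as a covariate and 1 without both end libraries. Leaving out each re-analyzed library in turn gave 36 to 117 rising and 0 to 10 falling genes.

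The difference of IMF was 0.195 with 10% at each end (permutation p = 0.471) and 0.0961 with groups by COL1A1 alone (p = 0.625), on the other side of 0 from -0.053. Among named genes the sign turned with the top-10 share for CD79A (0.0120), UGP2 (0.0548), IVNS1ABP (0.0354) and ENSSSCG00000034567 (0.00721), and for PCNA with groups by COL1A1 alone (-0.00638). Of 139 named called genes 32 lost the call with the mitochondrial share, 40 with the top-10 share (2 others turned), 52 with digits 16 only, 52 with 10% at each end and 29 by COL1A1 alone. No paired analysis was possible because each library is a different animal and the groups share no replicate numbers; with the title code as a random block 1916 genes were higher and 2505 lower. Depth is unknown, so the reliability of low genes could not be graded.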

Other observations

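Some lists of muscle genes tied to meat quality and stress held few calls, beside 17.9% higher and 23.6% lower over all genes. Of 11 tested genes of muscle protein breakdown 1 was higher and 2 lower in the collagen-rich muscles (median 0.03). CAST, calpastatin, the inhibitor of the calpain proteases that soften meat, had medians of 11.4 FPKM in the collagen-poor and 8.91 in the collagen-rich muscles (-0.39, limma adjusted p = 0.0287). CAPN1, a calpain, was higher by 0.14 (medians 17.2 and 19.2 FPKM, adjusted p = 0.0117), and FOXO4, a transcription factor of the FOXO family, was lower by -0.22. None of these 3 calls held with the mitochondrial share or the top-10 share as a covariate (CAST adjusted p = 0.503 and 0.63, CAPN1 0.29 and 0.212, FOXO4 0.084 and 0.152).

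Of 15 tested immediate early genes 1 was higher and 2 lower (median -0.14). ATF3, a stress-induced transcription factor, had medians of 24.6 and 13.6 FPKM (-0.83, limma adjusted p = 0.016), IER5 was lower by -0.37 and IER3 higher by 0.27. With the top-10 share 0 members of that list were called, and with the mitochondrial share 1 was lower, ATF3. Of 13 tested heat shock genes 2 were lower and 0 higher (median -0.10), DNAJA1 by -0.64 and HSP90AB1 by -0.33. That is a smaller share than the 23.6% lower over all genes, and 1 was lower with the mitochondrial share and 0 with the top-10 share as a covariate. Of 12 tested interferon response genes 1 was higher and 0 lower, the transcription factor IRF1 (0.38, medians 3.01 and 4.20 FPKM, limma adjusted p = 0.000624), which passed with neither share as a covariate (adjusted p = 0.0582 and 0.0635).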
